A study of Schizosaccharomyces pombe with 17 samples.

Results

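The genes described here encode the core proteins of the small nucleolar ribonucleoproteins (snoRNPs) of fission yeast, Schizosaccharomyces pombe, together with the nucleolin-like protein Gar2. They were taken by systematic ID from a table of 7027 features, and there are 8 of them. The 4 box C/D genes are fib1 (SPBC2D10.10c), nop56 (SPBC646.10c), nop58 (SPAC23G3.06) and snu13 (SPAC607.03c). The 3 box H/ACA genes are gar1 (SPBC20F10.01), cbf5 (SPAC29A4.04c) and nhp2 (SPAC1782.10c), and the nucleolin-like gene is gar2 (SPAC140.02). The genes fib1, nop56 and gar1 lie on chromosome II and the other 5 on chromosome I. Of the 8 genes, 7 passed the filter on low values, and cbf5 is listed at 0 in every library.

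A snoRNP is a small nucleolar RNA bound by a fixed set of proteins, and most such particles modify ribosomal RNA at sites that the RNA chooses by base pairing. Box C/D particles carry the methyltransferase fibrillarin, and box H/ACA particles carry the pseudouridine synthase dyskerin. The nuclear exosome, with its nucleases Rrp6 and Dis3, trims the ends of small nucleolar RNAs and of ribosomal RNA precursors and degrades many other nuclear transcripts.

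The study measured polyA-selected RNA from vegetatively growing cells in YES medium in 14 libraries, 2 for each of 7 groups. A further 3 libraries made by ligation to 3′ ends were not used here. The strains at 32 °C were rrp6Δ (JLP1704), rrp6-cat (JLP1708) and wild type (CHP1365). The double mutant rrp6-cat dis3-4 (JLP1863) and dis3-4 (JT449) were sampled at 23 °C, and also at 30 °C, where they had been kept for 1 h. Each genotype is 1 strain. With wild type at 32 °C alone, genotype and temperature cannot be told apart where a dis3-4 strain is set against it. Nothing in the labels says that the 2 libraries of a group came from separate cultures. The p-values thus measure only the spread between replicate libraries, pooled over all 7 groups, which may be technical. Values are FPKM, fragments scaled to transcript length and library, and fold changes are on the scale of log2(FPKM + 1). A gene is said to be called where the limma test, adjusted over all 6083 tested genes, gave a p under 0.05.

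The rrp6 transcript had 179 and 128 FPKM in the libraries labelled rrp6Δ, against 95.4 and 43.2 FPKM in wild type. It was thus not low there, and those libraries are named by their label throughout. The 2 wild type libraries differed more than those of any other group. Read from the steps between low values, the depth of wild type replicate 2 was 0.244 of that of wild type replicate 1. The other libraries had 0.265 to 1.10, so wild type replicate 2 was the lowest by a small margin. The mean square between replicates was 0.663 in wild type and 0.166 to 0.334 in the other groups. That value cannot say which of the 2 wild type libraries deviates. Because the fit shares 1 spread per gene over all 7 groups, p-values against wild type can be too small. With weights per library, 378 genes were called in the double mutant at 30 °C against wild type, beside 847 as fitted. All 7 measured genes were lower in wild type replicate 2 than in wild type replicate 1, as were 75.1% of the tested genes, with a median log2 difference of -1.02 for the 7 and -0.53 for all. Meiotic genes, several of which the exosome is known to silence in growing cells, were followed with 6 markers (mei4, spo5, rec8, ssm4, mcp7 and crs1). Their summed level was 1815 to 2121 FPKM in the libraries labelled rrp6Δ, 114 to 269 FPKM in the other mutant libraries and 23.2 to 38.5 FPKM in wild type, where rec8 was listed at 0 in replicate 2. Between 3 and 6 of the 6 were called higher in each mutant group against wild type, and their part in the results was not tested.

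The measured genes kept nearly the same order of level in every library. The gene snu13 was highest in all 14, then came nhp2, fib1 and nop56 in varying order, and then nop58, gar1 and gar2 always in that order. The median over the 14 libraries was 1859 FPKM for snu13, 398 FPKM for fib1, 395 FPKM for nhp2, 288 FPKM for nop56, 192 FPKM for nop58, 74.5 FPKM for gar1 and 18.8 FPKM for gar2. These levels are scaled to length and can be set side by side, although gar1 and gar2 share most of their length with a transcript of the other strand, described further on. Neighbours in the order did not always differ beyond their spread: the ratio of nhp2 to fib1 ran from 0.751 to 1.33. Within the box C/D set the ratio was 1.38 to 1.98 for nop56 over nop58, 1.79 to 2.79 for fib1 over nop58 and 0.912 to 1.95 for fib1 over nop56. The ratio of snu13 to fib1 was wider, from 2.56 in wild type replicate 1 to 7.88 in dis3-4 replicate 2 at 30 °C.

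**Figure D1:**
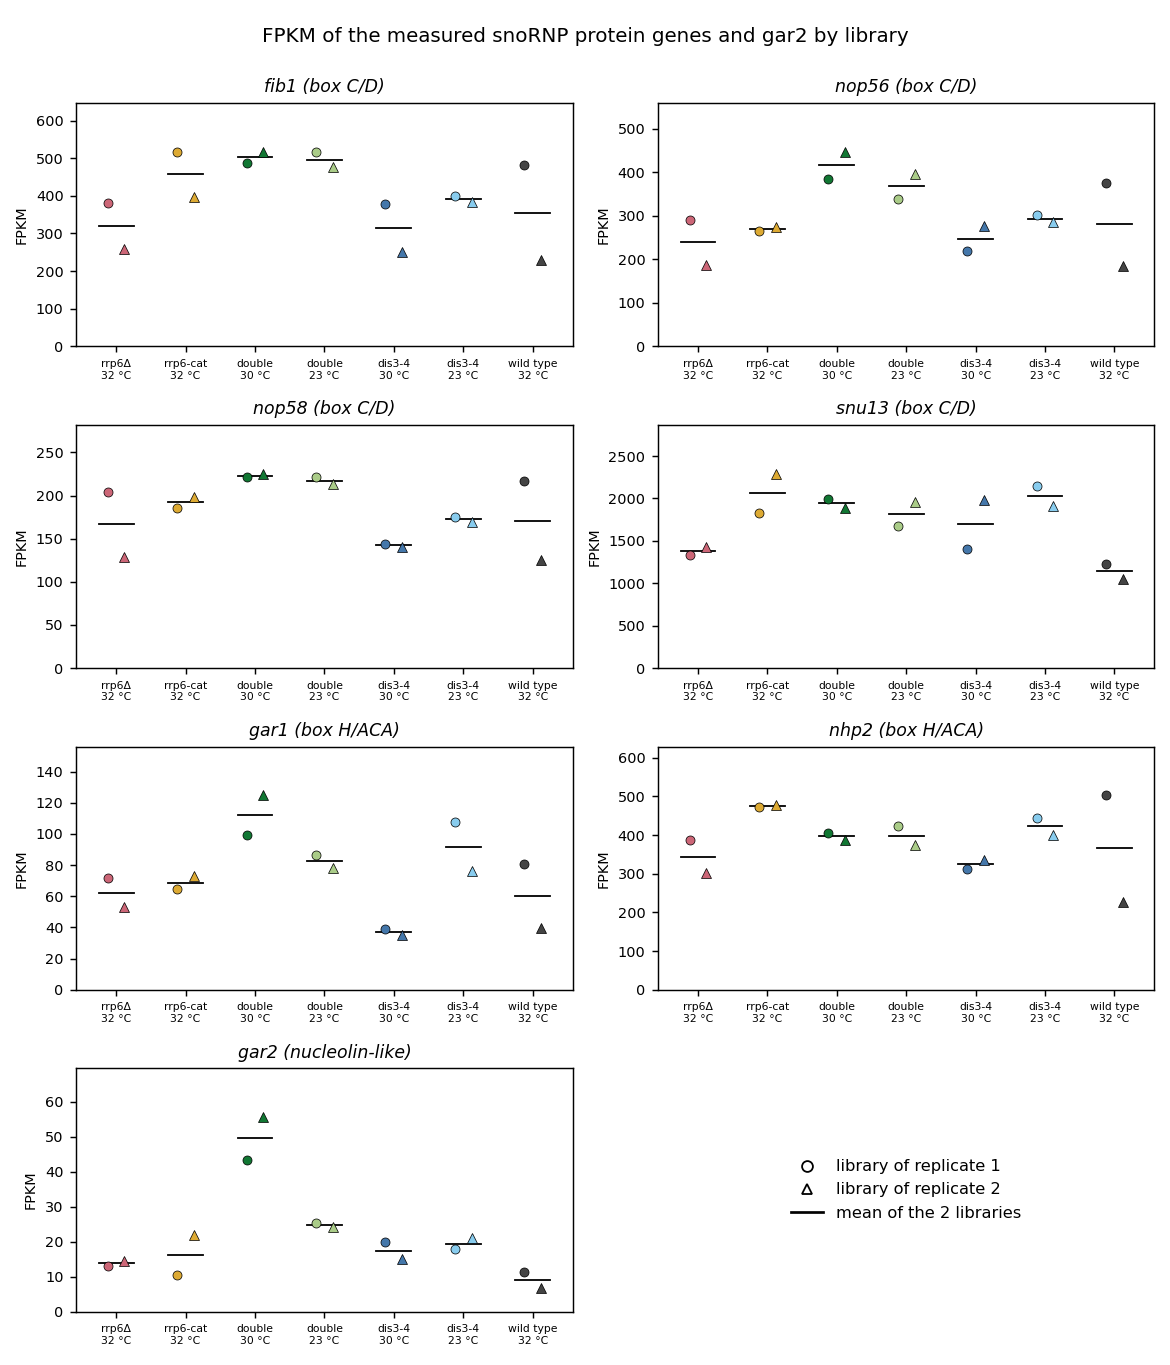
FPKM (vertical axes, from 0) of the 7 measured genes in each library, with circles for replicate 1, triangles for replicate 2 and a line at the mean of the 2; double is rrp6-cat dis3-4. The gar2 values of the double mutant at 30 °C, 43.4 and 55.6 FPKM, lie above all others, and gar1 is lowest in dis3-4 at 30 °C, at 39.3 and 35.2 FPKM.

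By group mean, the box C/D enzyme and scaffold genes stood highest in the double mutant at 30 °C. The gene fib1 encodes fibrillarin. fib1 had 380.1 and 259 FPKM in the libraries labelled rrp6Δ and 517 and 398 FPKM in rrp6-cat. It had 488 and 517 FPKM in the double mutant at 30 °C and 516 and 476 FPKM at 23 °C. For dis3-4 the values were 377 and 252 FPKM at 30 °C and 398 and 384 FPKM at 23 °C, and wild type had 481 and 229 FPKM. Both double mutant groups lay above both dis3-4 groups without overlap, while the 2 wild type libraries spanned most of the range. The gene nop56 encodes 1 of the paired scaffold proteins of the particle. nop56 had 291 and 187 FPKM in the libraries labelled rrp6Δ and 265 and 275 FPKM in rrp6-cat. It had 384 and 447 FPKM in the double mutant at 30 °C and 339 and 395 FPKM at 23 °C. Values in dis3-4 were 218 and 276 FPKM at 30 °C and 301 and 285 FPKM at 23 °C, and wild type had 375 and 185 FPKM. Again the double mutant lay above dis3-4 at both temperatures, and wild type replicate 1 reached the range of the double mutant. Its partner is nop58. nop58 had 204 and 129 FPKM in the libraries labelled rrp6Δ and 185 and 199 FPKM in rrp6-cat. It had 221 and 226 FPKM in the double mutant at 30 °C and 221 and 214 FPKM at 23 °C. The dis3-4 libraries had 144 and 141 FPKM at 30 °C and 176 and 169 FPKM at 23 °C, and wild type had 217 and 125 FPKM. The nop58 values of dis3-4 at 30 °C were close together and lay below those of dis3-4 at 23 °C and of the double mutant.

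None of these 3 genes was called in any comparison. Over dis3-4, both at 30 °C, the double mutant had log2 fold changes of 0.75 for nop56 (SE 0.31, limma adjusted p = 0.253), 0.70 for fib1 (SE 0.33, adjusted p = 0.319) and 0.65 for nop58 (SE 0.27, adjusted p = 0.258). Against wild type the same libraries had 0.65 for nop56, 0.60 for fib1 and 0.44 for nop58 (limma adjusted p = 0.202, 0.275 and 0.336). Without wild type replicate 1 all 3 were called, at 1.16 for nop56, 1.13 for fib1 and 0.83 for nop58, and without wild type replicate 2 they were 0.14, 0.06 and 0.04. In the libraries labelled rrp6Δ the log2 fold changes against wild type were -0.17, -0.08 and -0.02.

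The other box C/D gene, snu13, was higher than wild type in every mutant library. Its protein binds the kink-turn of box C/D RNAs and is also part of the spliceosomal tri-snRNP. snu13 had 1337 and 1429 FPKM in the libraries labelled rrp6Δ and 1828 and 2294 FPKM in rrp6-cat. It had 1992 and 1890 FPKM in the double mutant at 30 °C and 1679 and 1956 FPKM at 23 °C. For dis3-4 the values were 1404 and 1985 FPKM at 30 °C and 2145 and 1915 FPKM at 23 °C, and wild type had 1231 and 1050 FPKM. No mutant library fell within the wild type range. The double mutant at 30 °C was called against wild type (log2 0.77, SE 0.23, limma adjusted p = 0.0437). That call was lost without wild type replicate 2 (limma adjusted p = 0.167), without either double mutant library (0.199 and 0.157), with size factors (0.227), with quantile normalization (0.0578), with weights per library (0.188) and in a fit of the 2 groups alone (0.216). Those weights came out equal for the 2 libraries of each group, so they did not set 1 wild type library below the other. The log2 fold changes in rrp6-cat and in dis3-4 at 23 °C were as large, 0.85 and 0.83, and missed the threshold (limma adjusted p = 0.0526 and 0.0602). They were 0.67 in the double mutant at 23 °C, 0.55 in dis3-4 at 30 °C and 0.28 in the libraries labelled rrp6Δ (limma adjusted p = 0.0815, 0.176 and 0.488). The libraries labelled rrp6Δ lay below rrp6-cat without overlap (log2 -0.57, SE 0.23, limma adjusted p = 0.335).

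Among the box H/ACA genes, gar1 had the largest differences between groups. It encodes a core protein of the particle. gar1 had 71.8 and 52.8 FPKM in the libraries labelled rrp6Δ and 64.7 and 72.8 FPKM in rrp6-cat. It had 99.2 and 125 FPKM in the double mutant at 30 °C and 86.7 and 78.1 FPKM at 23 °C. Values in dis3-4 were 39.3 and 35.2 FPKM at 30 °C and 108 and 76.2 FPKM at 23 °C, and wild type had 80.7 and 39.4 FPKM. The 2 dis3-4 libraries at 30 °C were the lowest of the 14, and the double mutant at 30 °C held the highest. Over dis3-4 at 30 °C, the double mutant was called higher (log2 1.56, SE 0.32, 95% interval 0.85 to 2.27, limma adjusted p = 0.0357), which was 1 call among the 7 genes, where 1.51% of all tested genes were called higher. The call was lost without any 1 of the 4 libraries, with limma adjusted p of 0.188 and 0.328 without double mutant replicates 1 and 2 and of 0.0831 and 0.226 without dis3-4 replicates 1 and 2. The fold change itself stayed between 1.31 and 1.72 over the 13 alternatives, with adjusted p from 0.00526 to 0.328. At 23 °C the same strains overlapped (log2 -0.14, SE 0.32, 95% interval -0.85 to 0.57, limma adjusted p = 0.926).

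Between the temperatures, gar1 stood on opposite sides in the 2 strains. In the double mutant both libraries at 30 °C lay above both at 23 °C (log2 0.43, SE 0.32, limma adjusted p = 1). In dis3-4 both libraries at 30 °C lay below both at 23 °C (log2 -1.26, SE 0.32, limma unadjusted p = 0.00228, adjusted p = 0.447). Without overlap, 24.8% of all tested genes lay above in the double mutant and 17.6% lay below in dis3-4. The difference between the shifts was 1.69 on the log2 scale (SE 0.46, limma unadjusted p = 0.00326) and did not pass after adjustment over all genes (adjusted p = 0.999). Of all tested genes 0.00% passed that test, and 163 had an unadjusted p under 0.05. Against wild type, gar1 had log2 fold changes of 0.97 in the double mutant at 30 °C (limma adjusted p = 0.0717) and -0.59 in dis3-4 at 30 °C (limma adjusted p = 0.314). The second of these was called without wild type replicate 2 (-1.10, limma adjusted p = 0.0405, in a range up to 0.901 over the alternatives).

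The other measured box H/ACA gene, nhp2, encodes an RNA-binding protein related to Snu13, and it was called in no comparison. nhp2 had 387 and 302 FPKM in the libraries labelled rrp6Δ and 472 and 478 FPKM in rrp6-cat. It had 406 and 388 FPKM in the double mutant at 30 °C and 422 and 374 FPKM at 23 °C. The dis3-4 libraries had 313 and 335 FPKM at 30 °C and 444 and 401 FPKM at 23 °C, and wild type had 503 and 228 FPKM. The 2 wild type libraries were the lowest and the highest of the 14, so all mutant libraries lay between them. The log2 fold changes against wild type ran from -0.06 in dis3-4 at 30 °C to 0.49 in rrp6-cat (limma adjusted p = 0.935 and 0.483). The H/ACA core holds 1 more protein, Nop10, whose gene is not among the 8. The nop10 level was 587 ± 106 FPKM in the libraries labelled rrp6Δ, 1199.8 ± 365 FPKM in rrp6-cat, 1159 ± 132 FPKM in the double mutant at 30 °C and 1108 ± 92.0 FPKM at 23 °C. It was 852 ± 6.78 FPKM in dis3-4 at 30 °C, 1258 ± 156 FPKM in dis3-4 at 23 °C and 574 ± 32.1 FPKM in wild type (SD, n = 2 each). Against wild type nop10 was called in 4 groups, namely rrp6-cat (log2 1.03, limma adjusted p = 0.0284), the double mutant at 30 °C (1.01, adjusted p = 0.0165) and at 23 °C (0.95, adjusted p = 0.0260), and dis3-4 at 23 °C (1.13, adjusted p = 0.0182). The 4 calls were lost with size factors (limma adjusted p = 0.127, 0.0928, 0.0890 and 0.0514 in that order) and without wild type replicate 2 (0.138, 0.0678, 0.0907 and 0.0682).

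The nucleolin-like gene gar2 showed the largest fold change of the 7 genes. Gar2 is a nucleolar protein needed for normal production of small ribosomal subunits. gar2 had 12.9 and 14.6 FPKM in the libraries labelled rrp6Δ and 10.3 and 21.9 FPKM in rrp6-cat. It had 43.4 and 55.6 FPKM in the double mutant at 30 °C and 25.4 and 24.2 FPKM at 23 °C. For dis3-4 the values were 19.8 and 15.1 FPKM at 30 °C and 17.8 and 21.1 FPKM at 23 °C, and wild type had 11.2 and 6.83 FPKM. The 4 double mutant libraries were the highest of the 14, and of the mutant groups only rrp6-cat overlapped with wild type. In a bulk culture, more cells with the transcript and more transcript per cell cannot be told apart. Against wild type the log2 fold change was 2.36 in the double mutant at 30 °C (SE 0.37, 95% interval 1.54 to 3.17, limma adjusted p = 0.00184), or 5.12-fold on the FPKM + 1 scale. With each of the 4 libraries removed in turn gar2 was still called, at 2.04 without wild type replicate 2 and 2.68 without wild type replicate 1. It was not called in a fit of the 2 groups alone (limma adjusted p = 0.103, the highest of 13 alternatives, the lowest being 0.000733).

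At 23 °C gar2 was also called in the double mutant against wild type (log2 1.40, SE 0.37, limma adjusted p = 0.0328). That call was lost without wild type replicate 2 (1.08, limma adjusted p = 0.136), without either double mutant library (0.163 and 0.148), with quantile normalization (0.0969), with no filter on low values (0.0534), with weights per library (0.158) and in a fit of the 2 groups alone (0.255). In dis3-4 the gar2 log2 fold changes against wild type were 0.90 at 30 °C and 1.06 at 23 °C (limma adjusted p = 0.179 and 0.144). In the libraries labelled rrp6Δ and in rrp6-cat they were 0.59 and 0.72 (limma adjusted p = 0.361 and 0.366). Over dis3-4 at 30 °C, where no wild type library enters the contrast, the double mutant had a gar2 log2 fold change of 1.45 without overlap (SE 0.37, limma adjusted p = 0.0766, with 0.0214 to 0.493 over the alternatives). Within the double mutant both libraries at 30 °C were above both at 23 °C (log2 0.96, SE 0.37, limma unadjusted p = 0.0252, adjusted p = 1).

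**Figure D2:**
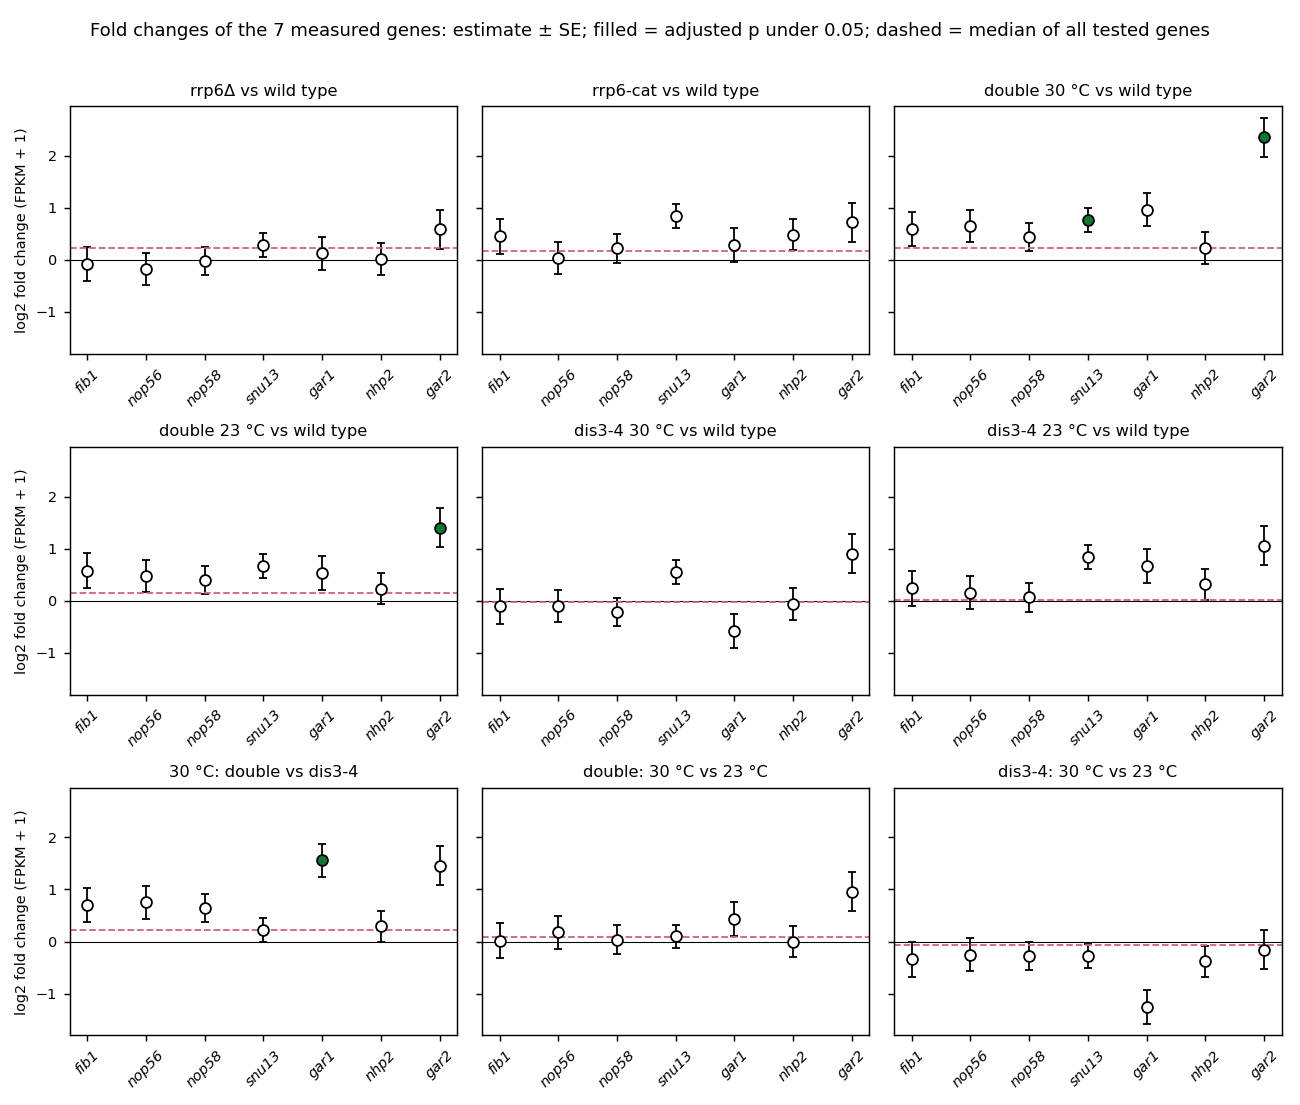
Log2 fold change of FPKM + 1 (vertical axis; point, estimate; bar, SE from limma) of the 7 measured genes in 9 comparisons, with filled points for an adjusted p under 0.05 and a dashed line at the median of all 6083 tested genes. The filled points are gar2 (2.36) and snu13 (0.77) in the double mutant at 30 °C against wild type, gar2 (1.40) in the double mutant at 23 °C against wild type, and gar1 (1.56) in the double mutant against dis3-4 at 30 °C.

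Genes on the other strand bear on what some of these FPKM can hold. In the reference annotation, a later assembly of the same genome used here for names and overlaps, 3 of the 8 genes lie mostly or wholly inside a noncoding RNA of the opposite strand that has its own row in the table. SPNCRNA.770 covers 72.2% of gar2, SPNCRNA.1590 covers 58.6% of gar1 and SPNCRNA.1051 covers the whole of cbf5. Smaller parts of nop56 and nhp2 are also overlapped by noncoding RNAs of the opposite strand. These are SPNCRNA.4939 and SPNCRNA.4940 for nop56 and SPNCRNA.4141 for nhp2, and they have no row of their own. Whether their reads entered the values of nop56 and nhp2 was not tested. The library kit keeps the strand, but the sources used here do not give whether counting used it, so reads of the genes of a pair cannot be told apart with certainty.

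The partner of gar2 was called in the same 2 groups as gar2, and in 1 more. SPNCRNA.770 had 204 and 176 FPKM in the libraries labelled rrp6Δ and 280.4 and 350.0 FPKM in rrp6-cat. It had 509 and 465 FPKM in the double mutant at 30 °C and 403 and 373 FPKM at 23 °C. Values in dis3-4 were 231 and 188 FPKM at 30 °C and 295 and 240.5 FPKM at 23 °C, and wild type had 182 and 78.5 FPKM. Its log2 fold change against wild type was 1.38 in rrp6-cat (limma adjusted p = 0.0284), 2.01 in the double mutant at 30 °C (adjusted p = 0.00196) and 1.69 in the double mutant at 23 °C (adjusted p = 0.00624). The rrp6-cat call was lost without wild type replicate 2 (0.78, limma adjusted p = 0.151). SPNCRNA.770 stood 8.37 to 27.1 times above gar2 in FPKM, and the lowest ratio was in double mutant replicate 2 at 30 °C, where replicate 1 had 11.7. What part of the gar2 values comes from reads of SPNCRNA.770 was not tested.

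The partner of gar1 differed less between the dis3-4 temperatures than gar1 did. SPNCRNA.1590 had 157 and 139 FPKM in the libraries labelled rrp6Δ and 163 and 162 FPKM in rrp6-cat. It had 223 and 199 FPKM in the double mutant at 30 °C and 175 and 193 FPKM at 23 °C. The dis3-4 libraries had 118 and 107 FPKM at 30 °C and 129 and 128 FPKM at 23 °C, and wild type had 155 and 84.4 FPKM. The ratio of SPNCRNA.1590 to gar1 was 3.01 in dis3-4 replicate 1 at 30 °C and slightly higher in replicate 2, and it was 1.20 and 1.68 in dis3-4 at 23 °C. Between these temperatures SPNCRNA.1590 had a log2 fold change of -0.19, and gar1 one of -1.26. Between the double mutant and dis3-4 at 30 °C the partner had 0.90 (limma adjusted p = 0.114), and gar1 had 1.56.

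The gene cbf5 encodes dyskerin, the catalytic subunit of the H/ACA particle, and was listed at 0 in all 14 libraries. SPNCRNA.1051 had 148 and 114 FPKM in the libraries labelled rrp6Δ and 308 and 300.0 FPKM in rrp6-cat. It had 176 and 195 FPKM in the double mutant at 30 °C and 167 and 162 FPKM at 23 °C. For dis3-4 the values were 146 and 158 FPKM at 30 °C and 181 and 167 FPKM at 23 °C, and wild type had 239 and 195 FPKM. Among protein-coding genes wholly inside 1 such noncoding RNA of the table, 85 of 154 (55.2%) were listed at 0 in all 14 libraries. The share was 23 of 346 (6.65%) for genes covered by 50% or more but not wholly, 2 of 458 (0.437%) for those covered by less, and 70 of 4146 (1.69%) for those with no such partner. An exact 0 can be a failed estimate, so the listed 0 of cbf5 says nothing of its expression. SPNCRNA.1051 itself was called lower in the libraries labelled rrp6Δ than in rrp6-cat (log2 -1.22, limma adjusted p = 0.0110) and than in wild type (-0.73, limma adjusted p = 0.0332). The first call was lost without rrp6Δ replicate 2 (0.114) or either rrp6-cat library (0.0757 and 0.0526), and the second without rrp6Δ replicate 2 (0.217) or wild type replicate 1 (0.0723).

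**Figure D3:**
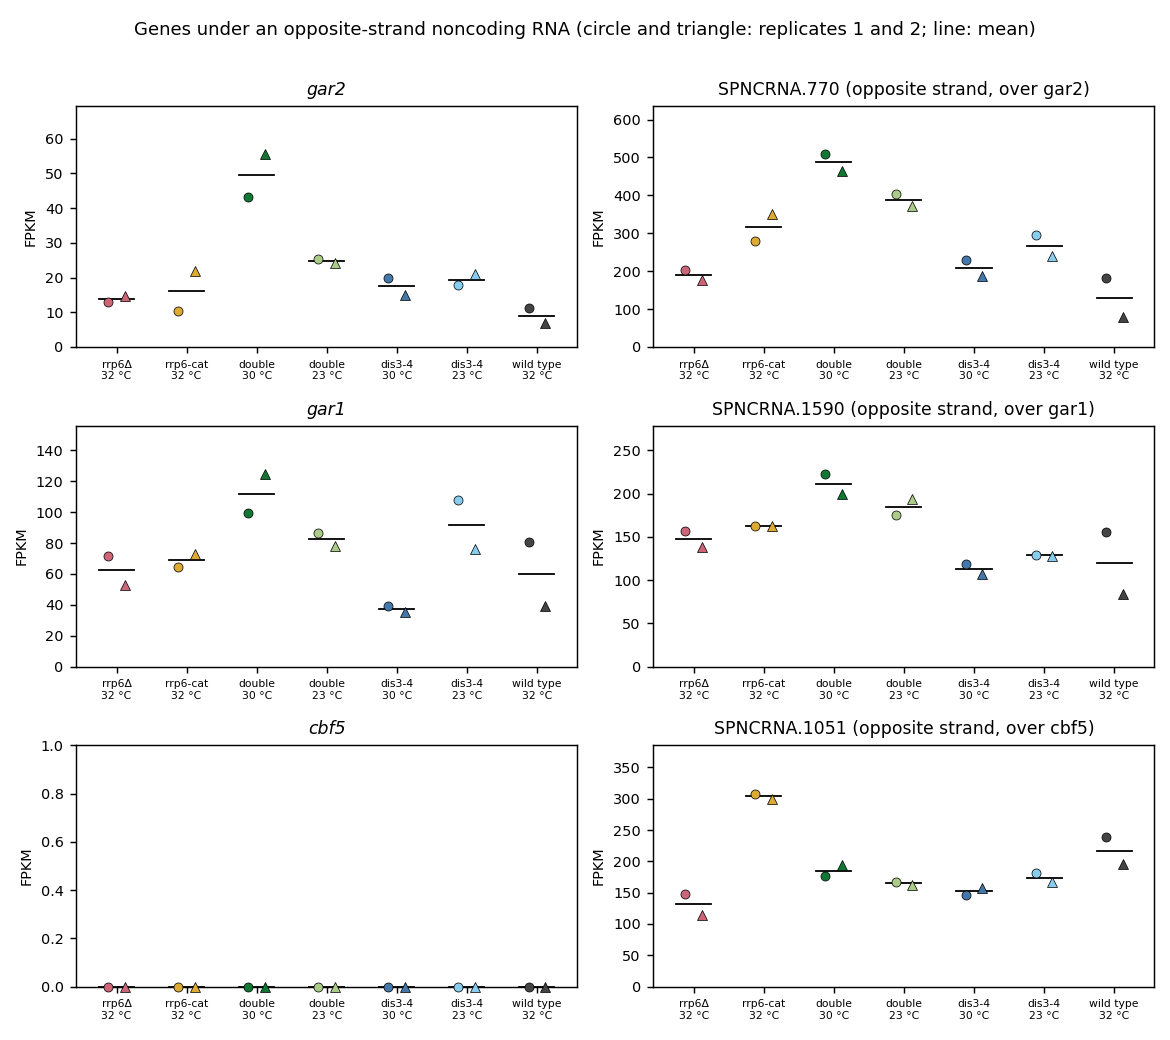
FPKM (vertical axes, from 0) by library of 3 genes, left, and of the opposite-strand noncoding RNA that covers each, right, with circles for replicate 1, triangles for replicate 2 and a line at the mean. Both gar2 and SPNCRNA.770 are highest in the double mutant at 30 °C, the ratio of SPNCRNA.1590 to gar1 is over 3 in both dis3-4 libraries at 30 °C, and cbf5 is listed at 0 in all 14 libraries.

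Counted over the 7 measured genes, 2 were called against wild type in the double mutant at 30 °C (gar2 and snu13), both higher, where 11.7% of all tested genes were called higher. For 6 of the 7 (not nhp2) both libraries lay above both wild type libraries, where 35.3% of all tested genes did. The median log2 fold change was 0.65 for the 7 genes and 0.24 for all. In the double mutant at 23 °C 1 of the 7 was called higher (gar2), where 9.42% of all were, and 2 (gar2 and snu13) lay above without overlap, where 30.9% of all did, with a median of 0.54 beside 0.15. These counts changed with the libraries used. Without wild type replicate 1, 7 of the 7 were called in the double mutant at 30 °C and 6 at 23 °C, where 23.3% and 20.6% of all tested genes were called higher. With wild type replicate 2 left out, 1 and 0 of the 7 were called, where 6.71% and 5.16% of all were called higher. With either of the double mutant libraries left out, fewer of the 7 were called at each temperature, and so were fewer of all tested genes.

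In the other groups 0 of the 7 were called against wild type by limma, where 12.5% of all tested genes were called in the libraries labelled rrp6Δ, 5.64% in rrp6-cat, 8.58% in dis3-4 at 30 °C and 5.11% in dis3-4 at 23 °C. At an unadjusted p under 0.05 the counts were 0, 1, 2 and 2, where 1582, 1037, 1360 and 1095 of the 6083 tested genes had such a p. Both libraries lay above wild type for 2 of the 7 in the libraries labelled rrp6Δ (31.8% of all tested genes), 1 in rrp6-cat (24.5%), 2 in dis3-4 at 30 °C (20.5%) and 2 in dis3-4 at 23 °C (20.5%). These were snu13 in all 4 and gar2 in all but rrp6-cat, and gar1 lay below wild type in dis3-4 at 30 °C, as 19.5% of all did. The median log2 fold changes were 0.01 for the 7 genes and 0.23 for all in the libraries labelled rrp6Δ, 0.45 and 0.18 in rrp6-cat, -0.10 and -0.03 in dis3-4 at 30 °C, and 0.32 and 0.02 in dis3-4 at 23 °C. In rrp6-cat without wild type replicate 2, fib1, nop56, nop58, gar1 and nhp2 were at -0.08, -0.47, -0.17, -0.23 and -0.08. In dis3-4 at 23 °C fib1, nop56, nop58 and nhp2 were then at -0.30, -0.36, -0.33 and -0.25. The remaining genes kept their positive sign in these 2 groups. Without wild type replicate 1, 3 of the 7 were called in rrp6-cat and 4 in dis3-4 at 23 °C, where 20.6% and 14.9% of all were.

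Some comparisons need no wild type library. Over dis3-4 at 30 °C, the double mutant had positive log2 fold changes for all 7, from 0.22 for snu13 to 1.56 for gar1, with a median of 0.70 beside 0.23 for all tested genes; snu13 was at -0.04 with size factors and at -0.03 without dis3-4 replicate 1. For 6 of the 7 (not snu13) the groups did not overlap, where 41.0% of all tested genes had both double mutant libraries above. At that temperature 4 of the 7 (gar2, nop58, gar1 and nop56) had an unadjusted limma p under 0.05, where 16.7% of all did. At 23 °C 0 of the 7 were called by limma, where 0.986% of all were. An unadjusted p under 0.05 was found for 0 of the 7 at 23 °C, where 12.6% of all had it. There gar2, nop58, fib1 and nop56 lay above without overlap, where 33.2% of all did. In the libraries labelled rrp6Δ over rrp6-cat, 0 of the 7 were called by limma, where 1.69% of all were. Of the 7, snu13 alone had an unadjusted p under 0.05, where 12.3% of all did. All 7 values there were negative, with nhp2, snu13 and fib1 below without overlap, where 16.7% of all were. Without rrp6Δ replicate 2 the values of nop56, nop58 and gar1 were 0.11, 0.09 and 0.06, and without rrp6-cat replicate 2 that of gar2 was 0.38.

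Between the temperatures 0.00% of the tested genes, and 0 of the 7, were called by limma in either strain, while 96 genes in the double mutant and 273 in dis3-4 had an unadjusted p under 0.05. The median log2 fold change of the 7 in the double mutant was 0.10 beside 0.08 for all, and gar2 and gar1 lay above without overlap, where 24.8% of all did. In dis3-4 all 7 values were negative, with a median of -0.28 beside -0.06, and gar2 was at 0.03 without dis3-4 replicate 2 at 30 °C. There nhp2, nop58, gar1, fib1 and nop56 lay below without overlap, where 17.6% of all did.

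Another scaling moved the median of all genes. In the double mutant at 30 °C against wild type the median over all was 0.24 as fitted, 0.03 after size factors and -0.13 after quantile normalization, and the share of calls that were higher was 84.1%, 65.3% and 52.8% in that order. Relative to the median of 0.24, gar2 stood at 2.12, gar1 at 0.73, snu13 at 0.53, nop56 at 0.42, fib1 at 0.36, nop58 at 0.20 and nhp2 at -0.01. Relative to the median between the double mutant and dis3-4 at 30 °C, gar1 stood at 1.33, gar2 at 1.22 and snu13 at -0.01.

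The 5 other genes most like the average profile of the 8 were found by Pearson correlation over the 7 group means, among 5219 candidates with at least 10 FPKM on average. They were ani1 (r = 0.982) and ani2 (r = 0.961), which the reference names as FKBP-type isomerases, the RNA helicase gene has1 (r = 0.963), SPCC162.03 (r = 0.962) and taf9 (r = 0.961). The gene ani1 averaged 450.3 FPKM in the double mutant at 30 °C, 229 FPKM in dis3-4 at 30 °C and 266 FPKM in wild type, and has1 averaged 133, 74.5 and 66.6 FPKM there. For the 7 measured genes themselves r with this average ran from 0.673 for nhp2 to 0.933 for fib1. The average was not scaled, so gar2 and gar1, with the widest differences, weighed most in it, and cbf5 added only 0. All points share the same libraries, so these values are descriptions.

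Around these genes stands the rest of ribosome biogenesis: snoRNP assembly, maturation of the small and of the large subunit, and RNA polymerase I. Of 137 such genes, the 8 and nop10 left out, 122 were tested. Of these, 43 were called higher than wild type and 1 lower in the double mutant at 30 °C, with a median log2 fold change of 0.99, and 25 and 1 at 23 °C, with a median of 0.87. Of all tested genes 11.7% and 9.42% were called higher in the double mutant at 30 °C and 23 °C. In the libraries labelled rrp6Δ 7 of the 122 were higher and 1 lower, and in rrp6-cat 3 and 0. In dis3-4 the counts were 2 and 1 at 30 °C and 3 and 1 at 23 °C. The shares of all tested genes called higher were 9.81%, 4.88%, 6.38% and 4.39% in that order. The medians of the 122 were 0.48, 0.53, 0.23 and 0.39. The large subunit gene called lower in the double mutant at 30 °C is drs1, which matched SPCC1223.07c by symbol, an aspartate tRNA ligase in the reference and not a helicase. The same gene was the 1 called lower in the libraries labelled rrp6Δ (log2 -0.84, limma adjusted p = 0.0275). It was also the 1 called lower in dis3-4 at 30 °C (-0.99, limma adjusted p = 0.0161).

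Called genes came from 3 of the 4 parts of this list in the double mutant at 30 °C. Of the small subunit genes 20 of 51 were higher. Among them imp4, for a U3 snoRNP-associated protein, had 292 ± 0.410 FPKM in the double mutant and 45.5 ± 41.0 FPKM in wild type (SD, n = 2 each; log2 3.01, limma adjusted p = 0.00332), beside rok1 (2.67, adjusted p = 0.00491) and lcp5 (2.43, adjusted p = 0.00207). Of the large subunit genes 20 of 56 were higher. Among them the helicase gene dbp2 had 529 ± 15.7 FPKM in the double mutant and 100.3 ± 47.8 FPKM in wild type (SD, n = 2 each; log2 2.47, limma adjusted p = 0.000261), beside the rRNA methyltransferase genes rrp8 (2.51, adjusted p = 0.0106) and spb1 (1.97, adjusted p = 0.0169). Of the RNA polymerase I genes 3 of 10 were higher, namely the initiation factor gene rrn3 (1.92, limma adjusted p = 0.00227) and the subunit genes nuc1 (1.77, adjusted p = 0.0200) and rpa49 (1.07, adjusted p = 0.0478). Of the snoRNP assembly genes 0 of 5 were called, with a median of 0.03. With 11.7% of all tested genes called higher, 5 genes are too few to set this part apart. Without wild type replicate 2 the calls of nuc1 (limma adjusted p = 0.0540), rpa49 (0.259), rrp8 (0.0527) and spb1 (0.0569) were lost, and those of imp4, rok1, lcp5, dbp2 and rrn3 held with any 1 of the 4 libraries removed.

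The count differed with the libraries used. In wild type itself 119 of the 122 genes were lower in replicate 2 than in replicate 1, with a median log2 difference of -1.26, against -0.07 for 133 genes listed as ribosomal proteins. Without wild type replicate 1, 95 of the 122 were called higher in the double mutant at 30 °C and 83 at 23 °C, beside 23.3% and 20.6% of all tested genes. Without wild type replicate 2, 10 and 8 were, beside 6.71% and 5.16% of all, and the medians were 0.39 and 0.20. Without double mutant replicates 1 and 2 the counts were 8 and 7 at 30 °C, beside 4.57% and 4.14% of all, with medians of 1.06 and 0.99. At 23 °C they were 6 and 3, beside 3.78% and 3.17% of all, with medians of 0.79 and 0.93. Without wild type replicate 2 the medians were -0.15 in the libraries labelled rrp6Δ, -0.10 in rrp6-cat, -0.40 in dis3-4 at 30 °C and -0.22 in dis3-4 at 23 °C, so their sign turned. Over dis3-4 at 30 °C, with no wild type library in the contrast, 111 of the 122 had a positive log2 fold change in the double mutant, with a median of 0.78 beside 0.23 for all tested genes, and 2 were called.

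**Figure D4:**
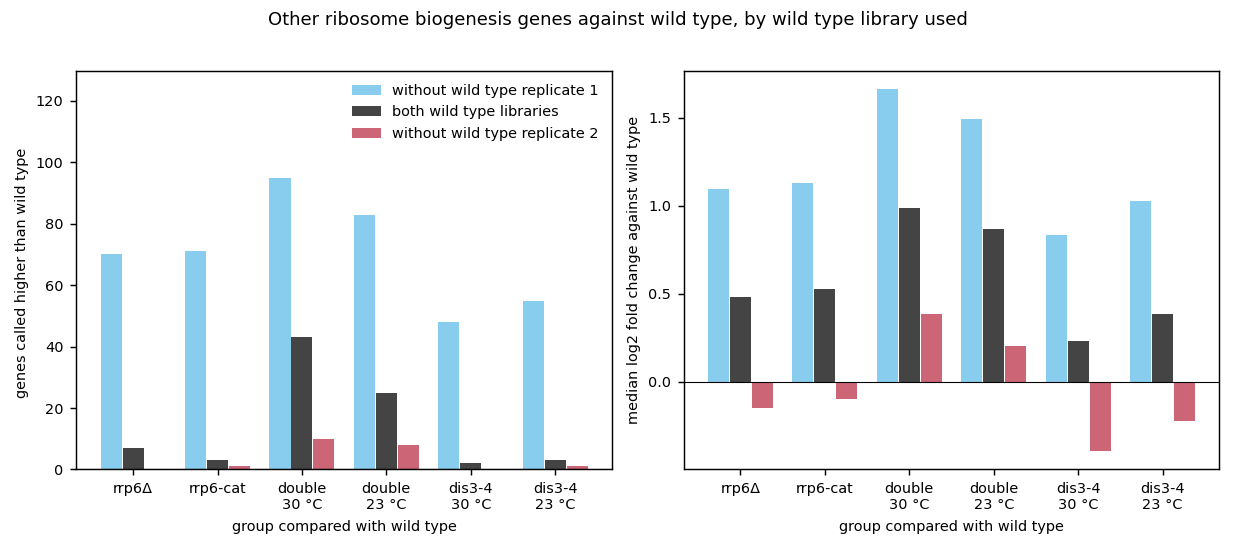
Left, number of the 122 other ribosome biogenesis genes called higher than wild type in each mutant group; right, their median log2 fold change; bars show the fits without wild type replicate 1, with both wild type libraries and without wild type replicate 2. In the double mutant at 30 °C 43 genes were called with both libraries, and 95 and 10 without wild type replicates 1 and 2.

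For 133 tested genes with a ribosomal protein symbol, the median log2 fold change in the double mutant at 30 °C against wild type was 0.20. It was 0.24 for all tested genes. In that comparison 4 of the 133 were called higher and 0 lower, where 11.7% of all tested genes were called higher. Among them were rpl3002 (log2 1.81, limma adjusted p = 0.00212), rpl102 (1.15, adjusted p = 0.0411) and rpl26 (1.08, adjusted p = 0.0165), and the last was not called with size factors (0.124). The symbols also took in rpp1, rpp21 and rpp40, which the reference names as subunits of RNase P or RNase MRP and which were not called here. Many of the ribosomal protein genes have a near-identical copy between which reads can be split, so their values are uncertain.

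The RNA partners of the proteins, the small nucleolar RNAs, mostly lack a polyA tail when mature. Of 53 listed 39 were tested. Called higher than wild type were 25 in the libraries labelled rrp6Δ, 20 in rrp6-cat, 20 in the double mutant at each temperature and 16 in dis3-4 at each temperature. The shares of all tested genes were 9.81% in the libraries labelled rrp6Δ and 4.88% in rrp6-cat. They were 11.7% and 9.42% in the double mutant at 30 °C and 23 °C, and 6.38% and 4.39% in dis3-4. The median log2 fold changes of the 39 RNAs were 5.40 in the libraries labelled rrp6Δ, 4.37 in rrp6-cat, 4.34 and 4.22 in the double mutant at 30 °C and 23 °C, and 2.41 and 2.35 in dis3-4 at 30 °C and 23 °C. The RNA snR5 averaged 2068 ± 199 FPKM in the libraries labelled rrp6Δ, 1326 ± 661 FPKM in the double mutant at 30 °C and 1111 ± 334 FPKM in dis3-4 at 30 °C (SD, n = 2 each). In wild type it had 40.3 FPKM in replicate 1 and was listed at 0 in replicate 2. In the libraries labelled rrp6Δ, where the median of these RNAs was 5.40, the median of the 7 protein genes was 0.01. These 2 medians are not like measures. Some of the RNAs were near 0 in wild type (sno16 averaged 5.6e-04 FPKM), so their fold changes depend on the added 1.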

How the data were processed

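PolyA RNA of 14 libraries (Ambion RiboPure extraction, NuGen Ovation Universal stranded kit, per the labels' protocols) was measured. The deposited values are FPKM per feature, made with Cuffnorm, and TopHat2 2.1.0, Bowtie2, Cufflinks 2.2.1, Cuffdiff and the build ASM294v2 are named in the submitters' processing notes. Total counts are not in the table used, so depth is known only relative to wild type replicate 1, from the steps between low values. The pooled Cuffdiff values and the 3′-end coverage were not used here.

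From the FPKM, log2(FPKM + 1) of features with a mean of at least 1 FPKM (6083 of 7027) was fitted with limma 3.58.1 (R 4.3.3), with 7 group means and a trended spread. Benjamini-Hochberg adjustment ran over all tested features, and 11 comparisons and the difference between the temperature shifts were tested. The steps were tested on simulated data. RefSeq matched 6839 of 7027 features, 4408 with a symbol, and 1 row without a name was left out. The annotation is of another build, so no coordinates or sequences are given.

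The 8 genes and the lists were chosen with earlier results of these data known. Named list genes are up to 3 per list with the largest absolute change among those called in rrp6Δ, the double mutant at 30 °C or dis3-4 at 30 °C when set against wild type, and further genes are named for likeness of profile or overlap. Alternatives were the pseudocount, the filter, the scaling, weights per library, a replicate term, the compared groups alone and each library left out. The weights were equal within each group (0.290 for both wild type libraries), so they differed only between groups.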

Additional observations from a re-analysis of the deposited data

Results flagged for a closer look

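The gene gar1 stood out because both of its libraries at 30 °C lay above both at 23 °C in the double mutant rrp6-cat dis3-4 and below both in dis3-4. The difference between these shifts was 1.692 on the log2 scale. Its limma test did not pass after adjustment over all genes (adjusted p = 0.999). Such separation was common: 24.8% of all tested genes lay above in the double mutant and 17.6% lay below in dis3-4. The share of genes with both was not counted.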

How the results depend on the processing

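Over 84 values of single genes and 1120 alternatives, 1074 kept their side of the threshold, 21 lost a call, 25 gained one and 0 called values reversed. The 1074 include 53 alternatives in which the sign changed, with the value called in neither fit. The number of the 7 genes called in rrp6-cat against wild type was 1 with a filter at a mean of 5 FPKM and 1 with the replicate number as a block, beside 0. In the double mutant against wild type at 23 °C it was 0 with no filter, quantile normalization, weights per library or the compared groups alone, beside 1. At 30 °C it was 1 with weights and 0 with the compared groups alone, beside 2, and with size factors or quantile normalization the 2 were gar1 and gar2, not snu13. For the double mutant over dis3-4 at 30 °C it was 2 with a pseudocount of 5 and with weights, and 0 with no filter and with the compared groups alone, beside 1. With each library left out in turn the counts against wild type ran from 0 to 3 in rrp6-cat, 1 to 7 and 0 to 6 in the double mutant at 30 °C and 23 °C, 0 to 1 and 0 to 4 in dis3-4 at 30 °C and 23 °C, and were 0 in each fit over dis3-4 at 30 °C. The ribosome biogenesis count, an alternative chosen after seeing the data, ran from 7 to 95 and from 3 to 83 with a library left out in the double mutant at 30 °C and 23 °C. The cause was not tested. The replicate numbers share no source in the labels, and deviations of same-numbered libraries correlated at -0.154 to 0.315 over 21 pairs of groups, 5 of them over 0.1, among them the 3 pairs of groups at 32 °C (0.191, 0.271 and 0.315). Any 2 groups share only 2 numbers, so whether these pair the libraries cannot be settled. The block added snu13 in rrp6-cat (limma adjusted p = 0.0450) and gar1 in the double mutant at 30 °C.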
